A study of Mus musculus with 6 samples.

Results

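The genes described here are those of glycolysis, glucose and lactate transport and the response to low oxygen, in hearts of mouse embryos at embryonic day 9.5. A list of 48 gene symbols was matched to the first column of the deposited count table, and 47 were found among its 15330 rows. Car9 was not among the rows and was not analysed here. The members fall into 3 glucose transporters, 2 lactate transporters, 15 glycolytic enzymes, 3 regulators of phosphofructokinase, 5 genes that act on pyruvate, 9 genes of the HIF machinery and 10 other HIF-responsive genes. The libraries fall into 2 groups of 3. One is labelled wild-type. The other, H2-URI d/d, is homozygous for the loss of 373 kb of DNA that lies upstream of Hand2, removed with CRISPR-Cas9; Hand2 encodes a transcription factor of the developing heart. In each group the title codes of 2 libraries start with F and that of 1 with M, and all carry batch number 1. The labels give no strain and do not say if a library is 1 heart or several. P-values therefore reflect how far these libraries scatter, which may be technical in part.

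Glycolysis splits glucose into pyruvate in the cytosol and yields ATP without oxygen. Pyruvate is then reduced to lactate and exported, or is oxidized in mitochondria. Hypoxia-inducible factor (HIF) pairs an oxygen-regulated alpha subunit with the stable subunit ARNT. When oxygen is present, EGLN enzymes hydroxylate the alpha subunit, and VHL then marks it for degradation. HIF is known to raise transcription of glucose transporters, glycolytic enzymes, pyruvate dehydrogenase kinases and its own hydroxylases, and the embryonic heart at this stage is known for its reliance on glycolysis.

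Reads recovered from the normalized counts, over the genes of the count table, summed to between 25583210 and 32043595 per library. Hand2 had 3911, 3789 and 4407 normalized counts in wild-type hearts against 1025, 1158 and 1163 with the deletion. Columns were given to samples by the code in each title. The file record puts 4 of the 6 libraries into the opposite group. Its wild-type group would hold Hand2 counts of 1025, 1158 and 4407, and its deletion group 3911, 3789 and 1163. Under that record 0 of the 47 members and 0 of all genes passed in limma, with 1 member and 414 genes at an unadjusted p under 0.05. The summed markers of cardiomyocytes (10 of 10 measured, none at 0) ranged from 856150 to 979980 normalized counts in wild-type and from 909270 to 994830 in deletion hearts, and none of the 10 passed. Markers of primitive erythroid cells (9 of 10 measured, none at 0) varied most within the groups, from 120930 to 354080 in wild-type and from 86026 to 459730 in deletion hearts, and none passed. Cushion and mesenchyme markers (7 of 7) summed to between 7209.6 and 9288 in wild-type and between 3756 and 5618 in deletion hearts. Twist1, Pdgfrb, Postn and Col3a1 were the 4 called lower, and Pdgfra, Sox9 and Prrx1 did not pass. Col3a1 alone had means of 4178 in wild-type and 1751 in deletion hearts. Epicardial markers (7 of 7) summed to between 2714 and 3589.5 and between 4443 and 5817. Only 1 passed, Krt19, which was higher, with means of 1299 in wild-type and 2351 in deletion hearts. Tbx18 (means of 815 and 1370, adjusted p = 0.0738, limma) and Tcf21 (193 and 363, adjusted p = 0.0545, limma) did not pass. Nor did Wt1, Upk3b, Upk1b and Aldh1a2. Markers of endothelium and endocardium (8 of 8) ranged from 21941 to 23423 and from 22638 to 23424, with 1 higher and 1 lower, and those of pharyngeal and foregut epithelium (7 of 8) from 4380.0 to 6807 and from 5385 to 5749, with none called. In macrophage markers (3 of 5) 1 was higher, Mrc1, with means of 117 in wild-type and 248 in deletion hearts. Csf1r and Cd68 did not pass, and the macrophage sums were 170.3 to 221 and 313 to 379. In neural crest markers (2 of 5) 1 was lower, Ets1, with means of 2230 in wild-type and 1807 in deletion hearts. Sox10, Foxd3 and Tfap2b were not among the rows, so this list says little about neural crest cells. Tfap2a did not pass, and the sums of 2170.2 to 2329 and 1759 to 1902 were nearly all Ets1. The part of these lists in the results below was not tested, and in whole hearts fewer cells of a type and less RNA per cell cannot be told apart.

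The members moved in one direction where they passed the test. Of the 47 measured members 11 rose in deletion hearts, 0 fell and 36 did not pass, at a Benjamini-Hochberg adjusted p under 0.05 over all 15330 genes in limma. Over all genes 3.05% passed by the same rule, 1.55% higher and 1.50% lower. The members were chosen with earlier results of these data known, so their higher share is a description and no test of the set. At an unadjusted p under 0.05, 20 members were higher and 0 lower, against 10.2% and 11.2% of all genes. On recovered reads edgeR called 10 members higher and 0 lower, against 1.75% and 1.51% of all genes. DESeq2 called 16 higher and 0 lower, against 3.52% and 3.91%. The median log2 fold change, deletion minus wild-type on log2(normalized count + 1), was 0.14 over the members and −0.01 over all genes. Every rise was modest, with log2 fold changes of called members between 0.31 for Kdm3a and 0.57 for Ddit4.

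**Figure D1:**
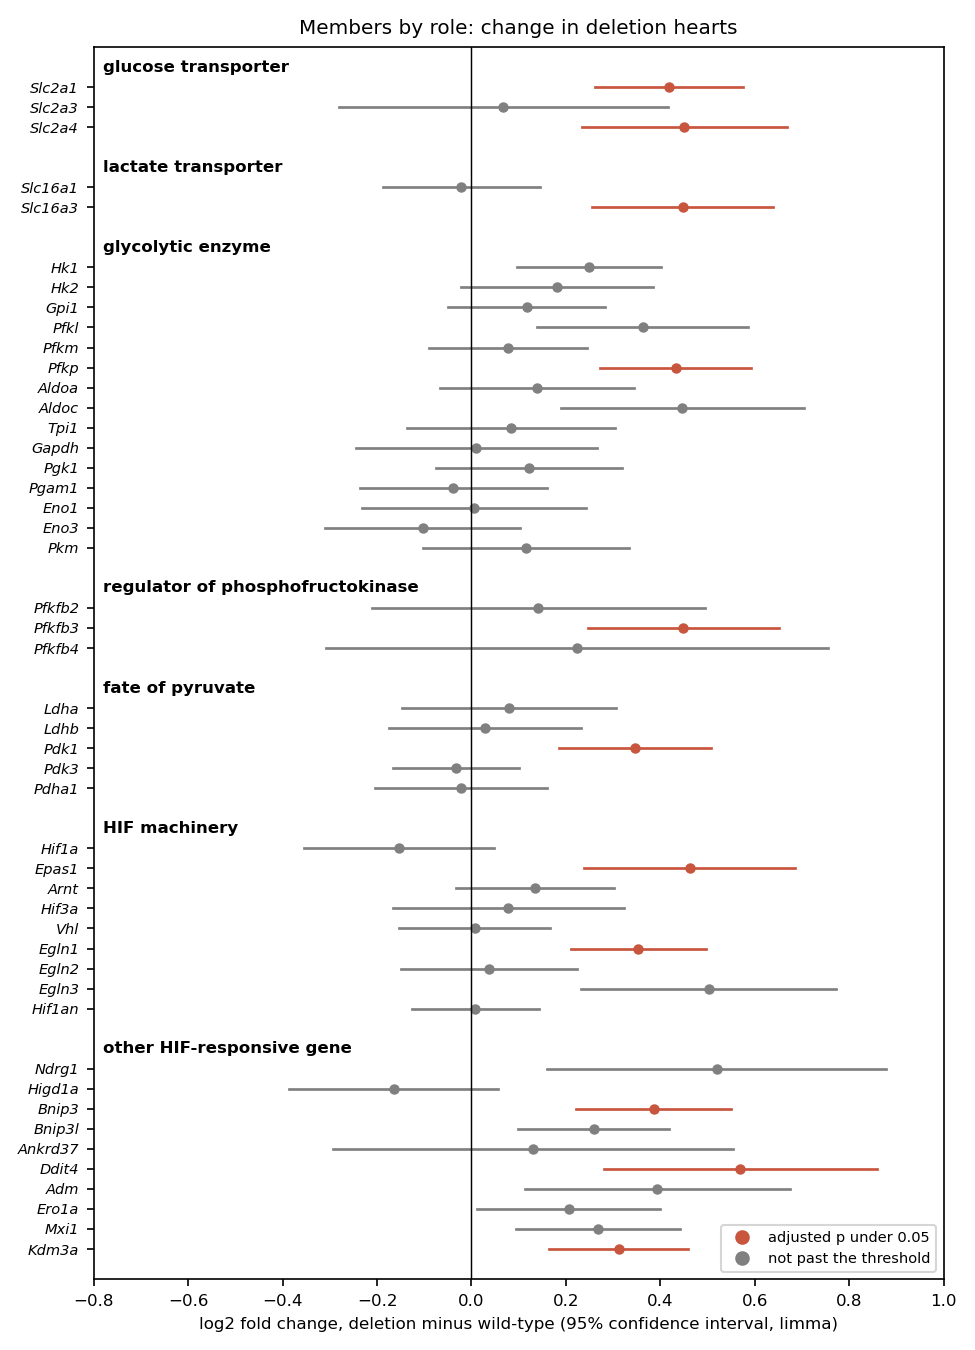
Log2 fold change (deletion minus wild-type, x axis) with its 95% confidence interval from limma for each of the 47 measured members, grouped by role. Red points passed an adjusted p of 0.05, all 11 of them to the right of 0, and grey points did not pass.

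The count of rises depended on the libraries and the variance model. Leaving out wild-type replicate 3 left 2 calls, where 0.574% of all genes were higher. Leaving out deletion replicate 1 left 0 (19 members at an unadjusted p under 0.05; 0.359% of all genes higher). Without deletion replicate 2 there was 1 call, against 0.274% of all genes, and without deletion replicate 3 there were 3, against 0.450%. Each of these fits has fewer libraries. With wild-type replicate 1 left out 14 members were higher and 0 lower, against 2.18% and 1.84% of all genes. The count was 5 with the F or M of the title codes as a covariate, where Slc2a1, Slc16a3, Pfkp, Egln1 and Bnip3 remained and 1.22% of all genes were higher. It was 0 without an intensity trend in the variance, where 19 members had an unadjusted p under 0.05 and 0.476% of all genes were higher. The split of calls over all genes was 237 higher to 230 lower, 393 to 209 once haemoglobin genes were set aside and totals made equal, and 197 to 309 once each library was corrected for transcript length and GC. Members called higher numbered 14 and 12 in those fits, against 2.56% and 1.29% of all genes, and 0 were called lower. The members that DESeq2 called beyond the 11 were Hk1, Pfkl, Aldoc, Egln3 and Bnip3l. Without wild-type replicate 1, limma called Pfkl, Egln3, Adm and Mxi1 in addition and lost Epas1.

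Sequences upstream of the start were examined for the letters that HIF binds, since members of several roles rose together. RefSeq windows (GRCm38.p6) were found for 42 of the 47 members. The motifs searched were ACGTG and GCGTG on both strands in the 250 bases before the start, with overlapping matches counted separately. One of them was present for 9 of the 9 called members with a window and for 29 of 33 members that were not called (87.9%), against 61.5% of the genes of the count table that have a window. A gene was counted if any of its windows held a match. By window the shares were 76.9% for called members, 81.6% for members not called and 55.4% for genes of the count table. The letters did not separate members that passed from those that did not. Below is 1 window for a called member of each of 4 roles, a glucose transporter, an enzyme, a kinase that acts on pyruvate dehydrogenase and a mitophagy receptor. Each is written 5′ to 3′ along the gene, with capitals for bases in a match.
Slc2a1, chr4:119108495-119108744, plus strand: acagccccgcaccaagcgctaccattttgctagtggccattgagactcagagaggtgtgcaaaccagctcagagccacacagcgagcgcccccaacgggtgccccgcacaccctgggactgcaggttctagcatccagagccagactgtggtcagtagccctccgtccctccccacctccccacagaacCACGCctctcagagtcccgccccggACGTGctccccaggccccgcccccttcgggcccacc
Pfkp, chr13:6648772-6649021, minus strand: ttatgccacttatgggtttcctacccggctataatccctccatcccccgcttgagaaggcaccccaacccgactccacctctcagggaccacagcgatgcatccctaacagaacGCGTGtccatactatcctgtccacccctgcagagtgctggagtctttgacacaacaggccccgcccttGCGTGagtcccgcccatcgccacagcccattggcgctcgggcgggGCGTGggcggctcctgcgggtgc
Pdk1, chr2:71872974-71873223, plus strand: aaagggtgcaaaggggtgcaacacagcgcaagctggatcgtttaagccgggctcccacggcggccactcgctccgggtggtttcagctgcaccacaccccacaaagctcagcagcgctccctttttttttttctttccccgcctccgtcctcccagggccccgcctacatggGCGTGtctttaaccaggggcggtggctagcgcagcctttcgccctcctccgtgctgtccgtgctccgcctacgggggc
Bnip3, chr7:138909507-138909756, minus strand: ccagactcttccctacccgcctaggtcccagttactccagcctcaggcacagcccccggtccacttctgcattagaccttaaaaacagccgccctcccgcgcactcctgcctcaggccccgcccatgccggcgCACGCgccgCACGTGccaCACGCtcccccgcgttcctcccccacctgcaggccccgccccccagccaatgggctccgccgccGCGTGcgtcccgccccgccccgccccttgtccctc
In the Bnip3 window the run CACGTG holds a match on each strand, and 5 matches were counted in all. The Pfkp window held 3 matches, the Slc2a1 window 2 and the Pdk1 window 1. Another Pdk1 window, not shown, held 0. A match is a run of letters and not a measured binding site.

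Among the glucose transporters, Slc2a1 and Slc2a4 rose and Slc2a3 did not pass. Slc2a1 encodes GLUT1, the main glucose carrier of embryonic tissues, and was the most abundant of the family. It had 17289, 17548 and 16658 normalized counts in wild-type replicates 1 to 3, against 23783, 23302 and 21757 in the same order for the deletion. Every deletion library lay well above every wild-type library, with means of 17165 ± 458 and 22947 ± 1059 (SD, n = 3; log2 fold change 0.42, SE 0.07, adjusted p = 0.0163, limma). The groups did not overlap with deletion higher in 19 of the 47 members and with deletion lower in 0, against 12.9% and 14.5% of all genes. Slc2a4, the insulin-responsive carrier GLUT4 of muscle, had 390.5, 425 and 358 in wild-type against 507, 528 and 568 in deletion libraries (log2 fold change 0.45, SE 0.10, adjusted p = 0.0411, limma). Its level per kilobase of the longest transcript was low, at 123 normalized counts per kilobase in wild-type hearts against 5265 for Slc2a1. Slc2a3, the high-affinity carrier GLUT3, had 5966, 9059.7 and 5644 in wild-type against 7669, 6956 and 6572 in deletion libraries. Wild-type replicate 2 alone stood above all other libraries for Slc2a3, and the log2 fold change of 0.07 had a 95% confidence interval from −0.28 to 0.42. The Slc2a3 log2 fold change was 0.28 without that library (adjusted p = 0.0701, limma), and −0.02 and −0.06 without wild-type replicate 1 or 3. Slc2a1 made up 77.3% to 83.4% of the family's summed level per kilobase in wild-type and 84.0% to 84.8% in deletion libraries.

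Of the 2 lactate transporters Slc16a3 rose and Slc16a1 did not pass. Slc16a3 encodes MCT4, which exports lactate from glycolytic cells, and rose from 8129, 7595 and 7669 normalized counts in wild-type to 11113, 11545 and 9355 in deletion libraries. The lowest deletion library, replicate 3, was still above the highest wild-type library (log2 fold change 0.45, SE 0.09, adjusted p = 0.0262, limma). Slc16a1, which encodes the lactate and pyruvate carrier MCT1, had 5432, 5741 and 5950.4 in wild-type against 6166, 5319 and 5414 in deletion libraries, with ranges that overlap (log2 fold change −0.02, 95% confidence interval −0.19 to 0.15). Per kilobase, Slc16a3 made up 60.4%, 57.5% and 56.8% of the pair's level in wild-type against 64.8%, 68.9% and 63.8% in deletion libraries. Every deletion library thus had a higher share of Slc16a3 than any wild-type library. The difference in response between the paralogs was not tested beyond these ranges.

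**Figure D2:**
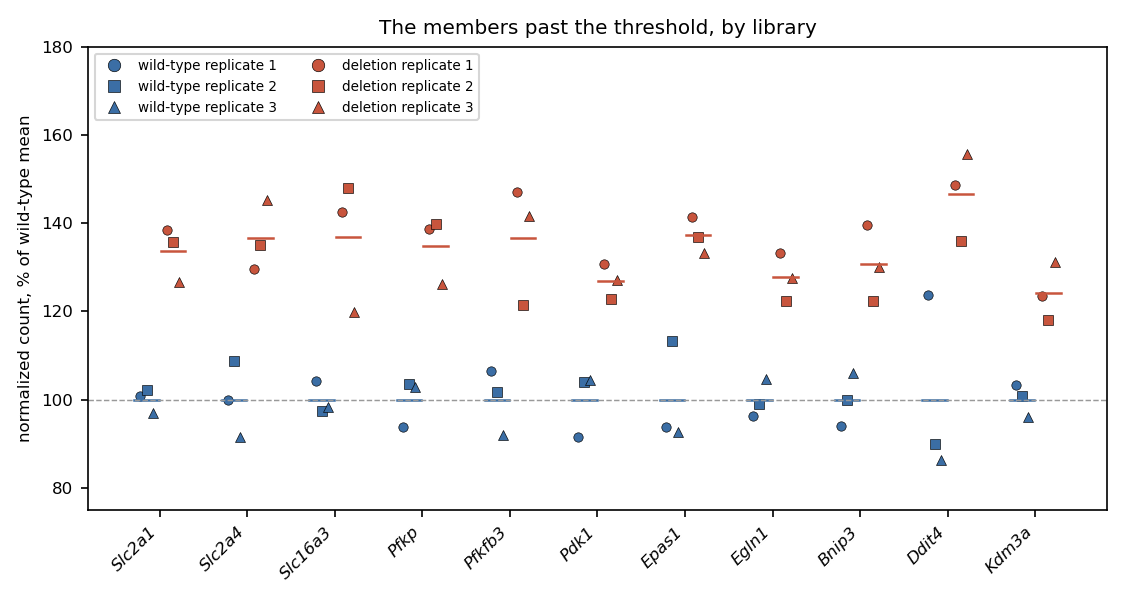
Normalized count of each of the 11 members past the threshold in each library, as a percentage of the mean of the 3 wild-type libraries (y axis; the axis does not start at 0). Blue marks are wild-type and red marks deletion libraries, with a mark shape per replicate number and a bar at each group's mean; no red mark reaches down to a blue one of the same gene.

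Of the 15 glycolytic enzyme genes 1, Pfkp, rose, 0 fell and 14 did not pass, with a median log2 fold change of 0.12. By an unadjusted p under 0.05, 4 were higher and 0 lower, against 10.2% and 11.2% of all genes. Pfkp, the platelet type of phosphofructokinase, which commits sugar to glycolysis, had 7464, 8243 and 8182 normalized counts in wild-type against 11044, 11134 and 10058 in deletion libraries. The wild-type libraries lay close together and all below the deletion libraries (7963 ± 433 and 10745 ± 597, SD, n = 3; log2 fold change 0.43, SE 0.07, adjusted p = 0.0156, limma). Pfkp was the member whose call held in the most single-library omissions, 4 of 6, and was lost without deletion replicate 1 or 2. The call held in 1 of 6 omissions for Epas1 and Ddit4, and in 2 or 3 for the other called members. Pfkl, the liver type, had 11220, 9349.7 and 8790.1 in wild-type against 12035, 13708 and 11872 in deletion libraries. The groups did not overlap but wild-type replicate 1 came close to the deletion libraries (log2 fold change 0.36, adjusted p = 0.0802, limma). Without that library Pfkl passed (log2 fold change 0.46, adjusted p = 0.0115, limma), as it did in DESeq2 (adjusted p = 0.00769). Pfkm, the muscle type, had 2554, 2299.6 and 2345 in wild-type against 2548, 2712 and 2340.3 in deletion libraries, and its ranges overlap (log2 fold change 0.08, 95% confidence interval −0.09 to 0.24). As a share of phosphofructokinase per kilobase, Pfkm made up 18.7%, 18.8% and 19.8% in wild-type against 16.4%, 16.0% and 15.8% in deletion libraries. The muscle type thus had a lower share in every deletion library. Which isozyme was largest depended on the length used: Pfkl made up 57.3% to 63.3% by longest transcript, and by median coding transcript Pfkp exceeded Pfkl in all libraries but wild-type replicate 1 (42.5% against 48.9%).

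Hexokinases and aldolases did not pass in limma, and the groups did not overlap for Hk1 and Aldoc. DESeq2 called Hk1 (adjusted p = 0.00963) and Aldoc (adjusted p = 0.0415). Both also passed in limma with equal totals without haemoglobin (adjusted p = 0.0421 and 0.0446), and Hk1 with quantile normalization (adjusted p = 0.0361). Hk1, the hexokinase that phosphorylates glucose in most tissues, had 9909, 10389 and 10813 normalized counts in wild-type against 12430.5, 12838 and 11709 in deletion libraries, with no overlap (log2 fold change 0.25, adjusted p = 0.0788, limma). Hk2, the hexokinase of insulin-responsive tissue, had 6311, 5953 and 6643 in wild-type against 8087, 7103 and 6334 in deletion libraries, and deletion replicate 3 lay within the wild-type range. Shares of the pair overlapped, with Hk1 at 66.9% to 69.2% of their level per kilobase in wild-type and 66.5% to 70.4% in deletion libraries. Aldoc, the aldolase best known from brain, had 212, 179 and 195 in wild-type against 277, 270.2 and 252 in deletion libraries, without overlap (log2 fold change 0.45, adjusted p = 0.0688, limma). Aldoa, which splits fructose-1,6-bisphosphate in muscle and embryo, had 51512, 43436 and 46731 in wild-type against 53139, 51152 and 51327 in deletion libraries, where wild-type replicate 1 lay above 2 deletion libraries. Aldoc stayed a minor isozyme, at 0.228% to 0.231% of aldolase per kilobase in wild-type and 0.272% to 0.293% in deletion libraries.

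The abundant enzymes of the lower pathway did not pass, and their wild-type libraries were spread widely. Gapdh, which oxidizes glyceraldehyde-3-phosphate, was the member of this role with the most counts, at 75886, 57766 and 65107 in wild-type against 69094, 66061 and 63875 in deletion libraries. The deletion libraries lay inside the wild-type range, and the log2 fold change of 0.01 had a 95% confidence interval from −0.24 to 0.27. For the other enzymes below aldolase the log2 fold changes were 0.08 for Tpi1, 0.12 for Pgk1, −0.04 for Pgam1, 0.01 for Eno1, −0.10 for Eno3 and 0.12 for Pkm. Wild-type replicate 1 was the highest of all 6 libraries for 6 of the 15 enzymes, and wild-type replicate 2 the lowest for 10. Together the 15 enzymes took 1.40%, 1.19% and 1.23% of all normalized counts in wild-type against 1.44%, 1.42% and 1.34% in deletion libraries, and wild-type replicate 1 lay within the deletion range. Without wild-type replicate 1 the median over the enzymes was 0.18, and without wild-type replicate 2 it was 0.08. Eno1 has a near-identical copy, Eno1b, which the table lists separately with a log2 fold change of 0.02, and reads of the pair may have been split between them.

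**Figure D3:**
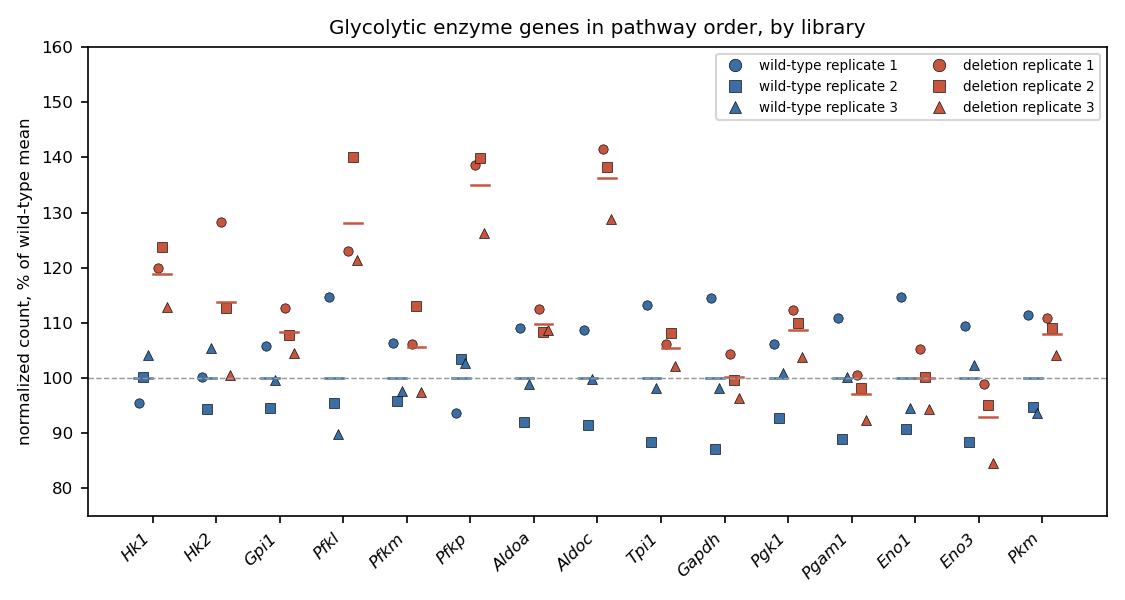
Normalized count of the 15 glycolytic enzyme genes in pathway order, by library, as a percentage of the wild-type mean (y axis; the axis does not start at 0). Blue marks are wild-type and red marks deletion libraries, with a bar at each group's mean; from Tpi1 to Pkm wild-type replicate 1 (blue circle) lies among or above the deletion libraries.

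Pfkfb3 rose among the regulators that set the level of fructose-2,6-bisphosphate, the activator of phosphofructokinase. It had 1277, 1219.6 and 1104 normalized counts in wild-type against 1765, 1458 and 1699.8 in deletion libraries, with no overlap (log2 fold change 0.45, SE 0.09, adjusted p = 0.0317, limma). Pfkfb3 encodes the form with the strongest kinase activity and was the largest of the family, at 61.8% to 73.4% of its level per kilobase in wild-type and 68.9% to 75.4% in deletion libraries. Pfkfb2, the form known from heart, had 194, 307 and 253 in wild-type against 278, 264 and 276 in deletion libraries, all of the latter within the wild-type range. Pfkfb4 had 186, 310.5 and 184 in wild-type against 204, 241 and 345 in deletion libraries. Its highest libraries were wild-type replicate 2 and deletion replicate 3, the libraries with the highest erythroid marker sum in each group, whose part was not tested.

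Of the 5 genes that act on pyruvate, Pdk1 rose and the other 4 did not pass, against 1.55% of all genes higher and 1.50% lower. Pdk1 encodes a kinase that inactivates pyruvate dehydrogenase and so keeps pyruvate out of the mitochondrial cycle. It had 6581, 7488 and 7522 normalized counts in wild-type against 9416, 8842 and 9154 in deletion libraries, without overlap (log2 fold change 0.35, SE 0.07, adjusted p = 0.0352, limma). Its paralog Pdk3 had 3168, 3004 and 3212 in wild-type against 3117, 2984 and 3069 in deletion libraries, and its ranges overlap. Per kilobase, Pdk1 made up 45.9%, 50.4% and 48.9% of the pair in wild-type against 55.2%, 54.7% and 54.9% in deletion libraries. By that measure the pair was near balance in wild-type hearts, and Pdk1 took the larger share in each deletion library. Without a length correction Pdk1 had the larger share in all libraries, at 67.5% to 71.4% in wild-type and 74.8% to 75.1% in deletion libraries. Ldha, which reduces pyruvate to lactate and was the most abundant gene of this role, had 72712, 60834 and 64011 in wild-type against 71448, 71133 and 65864 in deletion libraries, inside the wild-type range. Ldhb, the form that favours lactate oxidation, had a log2 fold change of 0.03, and Pdha1, the catalytic subunit of pyruvate dehydrogenase, one of −0.02.

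In the HIF machinery 2 of 9 genes rose, Epas1 and Egln1, 0 fell, and 7 did not pass, against 1.55% of all genes higher and 1.50% lower. Epas1 encodes HIF-2 alpha, known from endothelium, and had 398, 481 and 394 normalized counts in wild-type against 601, 581 and 566 in deletion libraries. All deletion libraries were above the wild-type range (log2 fold change 0.46, SE 0.10, adjusted p = 0.0411, limma). Hif1a, the alpha subunit found in most cells, had 8951, 10757 and 11218 in wild-type against 9657, 8797 and 9248 in deletion libraries. Wild-type replicate 1 lay with the deletion libraries there, and the log2 fold change of −0.15 had a 95% confidence interval from −0.35 to 0.05. Hif3a, whose products include inhibitors of the pathway, had 687, 757 and 730.3 in wild-type against 684, 719.6 and 908 in deletion libraries, with overlap. Hif1a remained by far the largest alpha subunit per kilobase, at 91.4% to 92.8% of the 3 in wild-type and 88.9% to 90.5% in deletion libraries, while Epas1 had 2.79% to 3.51% in wild-type and 4.66% to 5.07% in deletion libraries. The partner subunit Arnt had a log2 fold change of 0.13 and did not pass.

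Of the 3 prolyl hydroxylases that read oxygen, Egln1 rose and Egln2 and Egln3 did not pass. Egln1, the main HIF prolyl hydroxylase of most tissues, had 2693, 2765 and 2929 normalized counts in wild-type against 3728, 3423 and 3565 in deletion libraries, without overlap (log2 fold change 0.35, SE 0.06, adjusted p = 0.0212, limma). Egln3, a hydroxylase that is itself a HIF target, had 275, 241 and 208 in wild-type against 348, 339.8 and 332 in deletion libraries. Its groups did not overlap, and its adjusted p of 0.0568 in limma missed the threshold (log2 fold change 0.50). Egln2 had 1682, 1390.5 and 1472 in wild-type against 1483, 1635 and 1532 in deletion libraries, and its ranges overlap. Its share of the 3 paralogs per kilobase was 43.4% to 48.4% in wild-type and 37.6% to 41.8% in deletion libraries, below every wild-type value. Vhl, the receptor that recognizes hydroxylated HIF alpha, and Hif1an, the asparaginyl hydroxylase, had log2 fold changes of 0.01 each, with 95% confidence intervals from −0.15 to 0.17 and from −0.13 to 0.14. Epas1 and Egln1 no longer passed once libraries were corrected for length and GC, with log2 fold changes of 0.38 (adjusted p = 0.0522, limma) and 0.26 (adjusted p = 0.110, limma), while Egln3 passed (0.49, adjusted p = 0.0357).

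**Figure D4:**
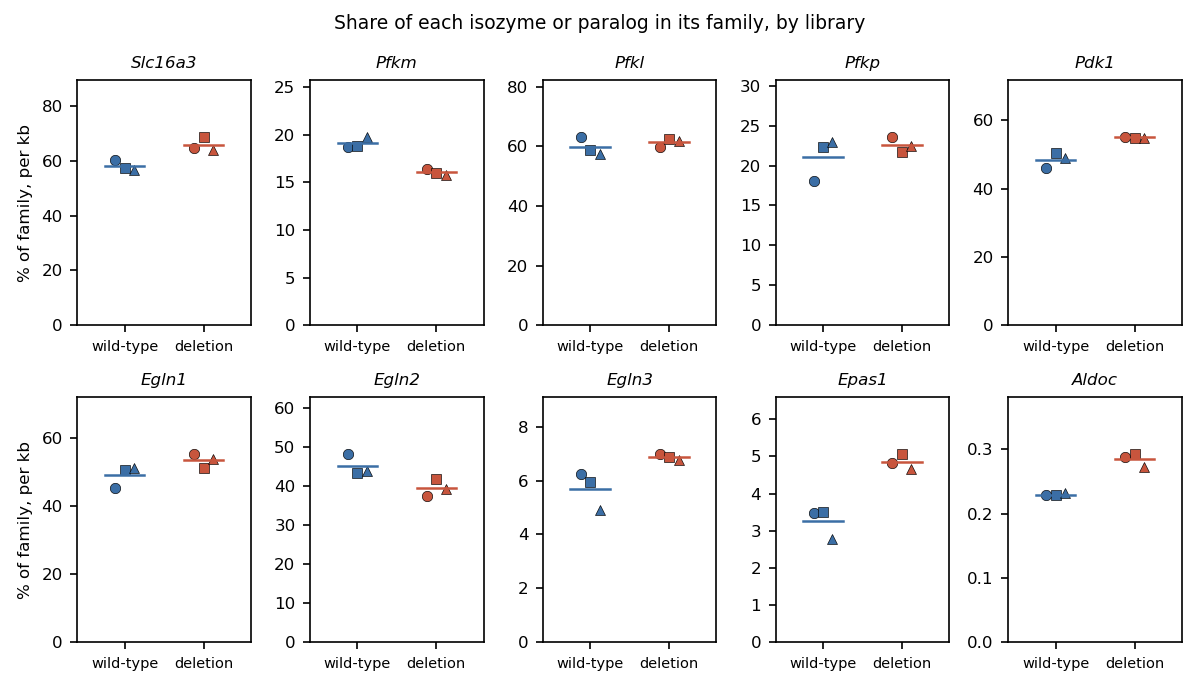
Share of a gene in the summed level of its family per kilobase of longest transcript (y axis, percent, from 0), in each wild-type (blue) and deletion (red) library, with a mark shape per replicate number and a bar at each group's mean. The shares of Slc16a3, Pdk1, Egln1, Egln3, Epas1 and Aldoc lie higher and those of Pfkm and Egln2 lower in every deletion library, while those of Pfkl and Pfkp overlap.

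Among 10 other measured HIF-responsive genes 3 rose, Bnip3, Ddit4 and Kdm3a, 0 fell and 7 did not pass, with a median log2 fold change of 0.29. By the same rule 1.55% of all genes were higher and 1.50% lower. Bnip3, a receptor on mitochondria that directs them to autophagy, had 5957, 6328 and 6719 normalized counts in wild-type against 8841, 7751 and 8243 in deletion libraries. The groups were well apart (log2 fold change 0.39, SE 0.07, adjusted p = 0.0263, limma). Its relative Bnip3l, known for clearing mitochondria from maturing red cells, had 5504, 6449.6 and 6143 in wild-type against 7347, 7091 and 7174 in deletion libraries. These did not overlap either, without a call (log2 fold change 0.26, adjusted p = 0.0805, limma), and Bnip3 kept 64.6% to 67.0% of the pair per kilobase in wild-type and 67.0% to 69.1% in deletion libraries. Ddit4, an inhibitor of the growth kinase complex mTORC1, had 979.6, 713 and 684 in wild-type against 1177, 1076 and 1233 in deletion libraries. Wild-type replicate 1 stood apart from its group, and the call was close to the threshold (log2 fold change 0.57, SE 0.13, adjusted p = 0.0488, limma, and 0.0501 in edgeR, where it did not pass). Kdm3a, a histone H3 lysine 9 demethylase that needs oxygen, had 2167, 2114 and 2015 in wild-type against 2591, 2475 and 2753 in deletion libraries, without overlap (log2 fold change 0.31, SE 0.07, adjusted p = 0.0376, limma).

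The other 6 genes of this role, beside Bnip3l, did not pass in limma. Adm, the vasoactive peptide adrenomedullin, had 398, 285 and 359.7 normalized counts in wild-type against 444, 451 and 462 in deletion libraries (log2 fold change 0.39, adjusted p = 0.112, limma). Mxi1, a repressor that pairs with Max, had 910.3, 788 and 814 in wild-type against 1019.6, 984 and 1018 in deletion libraries (0.27, adjusted p = 0.0899, limma). Ndrg1, a stress-responsive cytoplasmic protein, had 106, 82.7 and 81.4 in wild-type against 138, 125 and 122 in deletion libraries (0.52, adjusted p = 0.106, limma). None of these 3 had overlapping groups. Ero1a, an oxidase for disulphide formation in the endoplasmic reticulum, had a log2 fold change of 0.21, Ankrd37 one of 0.13, and Higd1a, a mitochondrial inner membrane protein, one of −0.16, all with overlapping groups.

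Further genes of the same pathways were read from the same fit in 6 lists that hold none of the members. The lists were chosen with earlier results of these data known. Of 84 measured genes 10 rose and 0 fell in limma, edgeR called 10 higher and 1 lower, and DESeq2 15 higher and 1 lower. Over all genes the shares higher and lower were 1.55% and 1.50% in limma and 1.75% and 1.51% in edgeR. In DESeq2 they were 3.52% and 3.91%. In limma at an unadjusted p under 0.05, 22 were higher and 6 lower, against 10.2% and 11.2% of all genes. The limma count of 10 was 5 without wild-type replicate 3 and 4 without any 1 of the deletion libraries. In those fits between 0.274% and 0.574% of all genes were higher. HIF-responsive genes held 8 of the 10, of 30 measured (median log2 fold change 0.17). Stc2, a secreted glycoprotein, had 156, 151 and 137 normalized counts in wild-type against 378, 286 and 335 in deletion libraries (log2 fold change 1.16, adjusted p = 0.00276, limma). Bhlhe40, a transcriptional repressor, had 413, 368 and 382 in wild-type against 644, 564 and 647 in deletion libraries (0.67, adjusted p = 0.00703, limma). In both genes every deletion library lay above every wild-type library. Vegfa, the angiogenic growth factor, and P4ha2, a collagen prolyl hydroxylase, also rose (0.57 and 0.39), as did Zfp395, Kdm4b, Rora and Plod2.

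In the other 5 lists 2 genes rose in limma, Eno2 and Gys1, and 0 passed as lower. Eloc missed the threshold in limma and was called lower by edgeR and DESeq2. Among 10 further glycolysis isozymes 1 rose, Eno2, the enolase known from neurons, with 372, 345 and 363 normalized counts in wild-type against 695, 694 and 600.5 in deletion libraries (log2 fold change 0.88, SE 0.09, adjusted p = 0.00177, limma). It had a far lower level per kilobase than Eno1, at 129 against 22129 normalized counts per kilobase in wild-type hearts. Among 14 glycogen genes 1 rose, Gys1, the glycogen synthase of muscle, with 3960.2, 3928 and 3994 in wild-type against 4909, 4947 and 4912 in deletion libraries (0.31, SE 0.05, adjusted p = 0.0191, limma). Of 12 genes of pyruvate oxidation, 8 of the pentose phosphate pathway and 10 partners of the HIF pathway, 0 passed in limma. At an unadjusted p under 0.05 these had 1 higher and 2 lower, 1 higher and 0 lower, and 0 higher and 3 lower. By that rule 10.2% of all genes were higher and 11.2% lower. Their lowest p-values belonged to Pdhb, a subunit of pyruvate dehydrogenase (log2 fold change −0.21, adjusted p = 0.160, limma), H6pd, which makes NADPH in the endoplasmic reticulum (0.42, adjusted p = 0.0623, limma), and Eloc, a subunit of the VHL ligase (−0.34, adjusted p = 0.0505 in limma and 0.0490 in edgeR). Without wild-type replicate 1 Eloc passed as lower in limma, and without wild-type replicate 2 Eloc, Pdhb and Elob did.

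**Figure D5:**
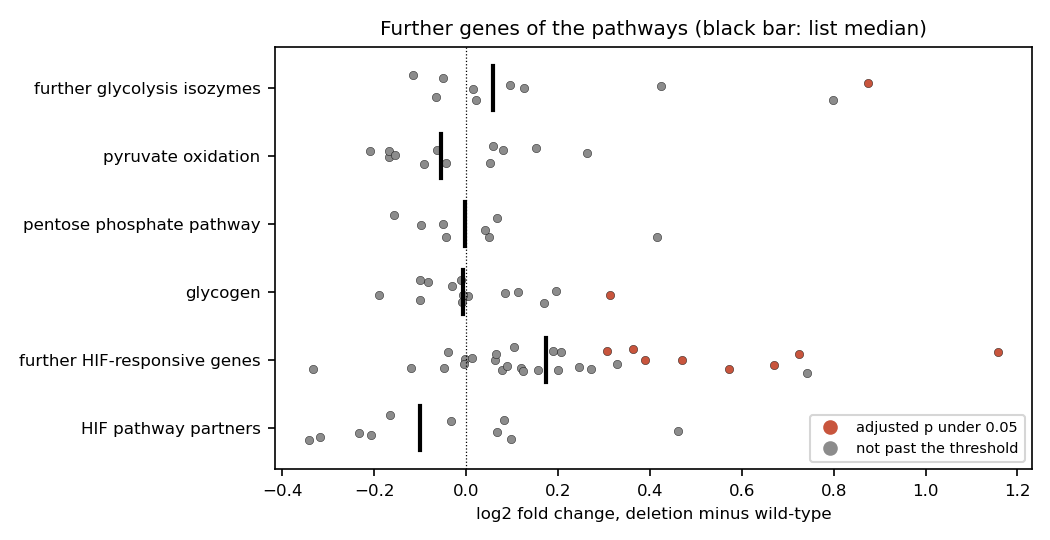
Log2 fold change (deletion minus wild-type, x axis) of the 84 measured genes of 6 further pathway lists, 1 point per gene, with a black bar at each list's median. Red points passed an adjusted p of 0.05 in limma, 8 of the 10 in the list of HIF-responsive genes, and grey points did not pass.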

How the data were processed

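Total RNA of micro-dissected hearts was made into stranded poly(A) libraries from 300 ng, per the labels' protocols. Builds GRCm39 and mm39 are named in the submitters' processing notes, together with STAR 2.7.9a, Subread 2.0.1 with featureCounts, bcl2fastq 2.20 and DESeq2 1.30.1. For the annotation, strand setting and gene filter, the text is not given in the sources used here. Each deposited value is a signal per gene, named normalized counts by the authors: reads divided by 1 size factor per library, as the values show. All values (100%, tolerance 0.01) were whole multiples of 1 read, with the step taken from the spacing of low values, since the lowest value stood for 2 reads in 3 libraries; reads were recovered on that basis. Genes with near-identical copies or pseudogenes, such as Eno1 and Gapdh, are uncertain where the counting could split reads.

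In R 4.3.3, limma-trend (limma 3.58.1) tested log2(normalized count + 1) over all 15330 genes, with a mean of at least 10, which removed 0 genes. Tests were two-sided, with Benjamini-Hochberg adjustment and a threshold of 0.05. On simulated counts for the 15330 genes it called 36.8% of genes changed 1.25-fold, 68.8% at 1.5-fold and 94.0% at 2-fold, and 4.50% of calls were false. The simulation drew genes independently, with a dispersion set by mean level and no variation shared across the genes of a library. Its rates may therefore not hold for the real libraries. Members and lists were chosen with earlier results of these data known. Values per library are given for members past the threshold, those without overlap and a log2 fold change of at least 0.2, their paralogs, and the most abundant of each role; from further lists, up to 4 called genes by smallest p, or up to 2 others. Transcript lengths (longest transcript) and GC content came from GENCODE M21, found for 98.0% of genes and 47 of 47 members, promoters from RefSeq (GRCm38.p6). No coordinates were converted. edgeR 4.0.16 called 268 genes higher and 231 lower on recovered reads; DESeq2 1.42.0 was a further alternative.

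Replicate numbers 1 to 3 recur in both groups, but nothing in the labels says that they pair libraries.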

Additional observations from a re-analysis of the deposited data

How the results depend on the processing

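The 47 log2 fold changes were recomputed under 21 alternatives, and 885 of 987 values kept their direction where called and their side of the threshold. Most of these values belong to the 36 members that did not pass, for which staying uncalled counts as kept. The alternative without a minimum mean repeats the main fit, since the filter removed 0 genes. Among called members the call held in 11 (Epas1 and Ddit4) to 16 (Pfkp) of 20 alternatives, the recorded file assignment set aside. Members called higher, 11 as reported, numbered 0 without an intensity trend (19 at an unadjusted p under 0.05), 5 with the F or M of the title codes as a covariate and 0 with the recorded file assignment (1 at an unadjusted p under 0.05), and 0 to 14 with each library left out in turn. Further pathway genes called, 10 as reported, numbered 4 without an intensity trend, 0 with the recorded file assignment, 16 in DESeq2 (15 higher, 1 lower) and 4 to 15 with each library left out; the cause was not tested. With a replicate block 0 members were called (20 at an unadjusted p under 0.05) and 4 further pathway genes. Libraries with the same number correlated at −0.03, −0.12 and −0.14 in their deviations from the group means. Those with unlike numbers correlated at −0.16 to 0.25. Deviations within a group are not independent, so these values cannot decide whether the numbers pair libraries. With the recorded file assignment the called members had log2 fold changes of −0.16 for Slc2a1, −0.0074 for Slc2a4, −0.26 for Slc16a3, −0.23 for Pfkp, −0.0336 for Pfkfb3, −0.16 for Pdk1, −0.11 for Epas1, −0.16 for Egln1, −0.19 for Bnip3, −0.0027 for Ddit4 and −0.012 for Kdm3a. Members called lower stayed at 0 in all 21 alternatives. Of 29 isozyme shares 16 did not overlap between groups, and 14 of them kept that under both other length settings. Shares within a family depend on one another, and in a pair each share mirrors the other, so the 16 are not separate results. Counts of single genes did not overlap for 12.9% of all genes with deletion higher and 14.5% with deletion lower. A share within a family is another measure, and no such rate was computed for shares. The Egln1 share overlapped without a length correction and that of Hif1a with the median coding transcript. With 3 libraries a group, most genes changed 1.25-fold were not called on the simulated counts, and smaller changes were not simulated.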
